A study of Mus musculus with 6 samples.

Results

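The 1410 peaks described here are regions of open chromatin that were less accessible in mouse intestinal organoids after both arachidonic acid (AA) and prostaglandin E2 (PGE2) than after vehicle. They were chosen by their measured values, out of 90823 consensus peaks. CPM, a peak's count scaled to the total of its library, was computed from the column totals. A peak was selected on an autosome when its mean over the 6 libraries was at least 2 CPM and the lower of the 2 vehicle values was at least 1.5 times the highest of the 4 AA and PGE2 values. Of the 90823 peaks, 88965 were autosomal and 67744 of these had a mean of at least 2 CPM, which leaves 66334 comparable peaks outside the rule. Because the difference from vehicle chose the members, it is given as a description and supports nothing further. The members were lowered rather than emptied: the smallest value of any member in a treated library was 7 counts. 

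The study measured accessibility by ATAC-seq, where a transposase cuts open DNA and tags it with adapters, using the Omni-ATAC protocol on freshly sorted intestinal epithelial cells. Organoids are crypt-derived epithelial cultures, and these were grown in Matrigel. All groups shared a medium with EGF, Noggin, R-spondin, the GSK3 inhibitor CHIR-99021 and the ROCK inhibitor Y-27632. One group received vehicle, one AA at 25 µM and one PGE2 at 50 nM, each for 3 days and each with 2 libraries. The compound is written here as in the treatment protocol; the design text of the series gives a dimethyl form of it instead. No strain, age or sex of the donor mice is stated in the labels, and a culture grown with a GSK3 inhibitor has its Wnt pathway active in every group, vehicle included. The labels do not say whether the libraries of a group came from separate cultures, so p-values measure only the spread between libraries, which may be technical.

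AA is a polyunsaturated fatty acid of membranes that cyclooxygenases and downstream synthases turn into prostaglandins, PGE2 among them. PGE2 acts through G-protein-coupled receptors, some of which raise cyclic AMP, and is known in the intestine for its effects on crypt stem cells and on repair after injury. An ATAC-seq peak away from a gene start often marks an enhancer, a stretch of DNA where transcription factors bind, while a peak at a start site marks a promoter.

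Few members lay at promoters, and the sequences below show those that the results turn on. They are the 250 bases before an annotated start site, written 5′ to 3′ on the gene's strand, from RefSeq on GRCm38.p6, the assembly of mm10. Of the 1410 members, 66 overlapped 76 such start-site windows of 69 genes by at least 150 bp, the window counted with 50 further bases after the start. Capitals mark matches on either strand to the motifs named after the sequences. Lmcd1 is shown as the most accessible member in vehicle, Npy2r as a gene-end member with one of the largest ratios, Olfm4 as a stem cell marker, Dpp4 as an enterocyte gene, Esrrg as the start site in the largest group of neighbouring members, and Ptgdr as a prostaglandin receptor gene.

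Lmcd1, chr6:112273508-112273757, plus strand: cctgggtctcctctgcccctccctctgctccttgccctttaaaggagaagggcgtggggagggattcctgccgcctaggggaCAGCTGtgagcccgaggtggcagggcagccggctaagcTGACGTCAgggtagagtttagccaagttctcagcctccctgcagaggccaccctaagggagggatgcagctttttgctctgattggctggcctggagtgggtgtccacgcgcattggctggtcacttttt
Npy2r, chr3:82548086-82548335, minus strand: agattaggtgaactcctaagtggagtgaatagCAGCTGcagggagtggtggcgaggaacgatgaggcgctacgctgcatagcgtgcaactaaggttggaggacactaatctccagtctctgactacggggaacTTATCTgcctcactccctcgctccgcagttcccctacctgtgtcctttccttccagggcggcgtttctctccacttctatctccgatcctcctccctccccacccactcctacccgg
Olfm4, chr14:80000052-80000301, plus strand: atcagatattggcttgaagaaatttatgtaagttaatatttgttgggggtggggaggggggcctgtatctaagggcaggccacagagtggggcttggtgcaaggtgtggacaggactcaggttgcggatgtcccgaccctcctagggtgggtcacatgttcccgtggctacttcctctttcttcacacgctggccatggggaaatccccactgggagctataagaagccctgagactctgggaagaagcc
Dpp4, chr2:62412232-62412481, minus strand: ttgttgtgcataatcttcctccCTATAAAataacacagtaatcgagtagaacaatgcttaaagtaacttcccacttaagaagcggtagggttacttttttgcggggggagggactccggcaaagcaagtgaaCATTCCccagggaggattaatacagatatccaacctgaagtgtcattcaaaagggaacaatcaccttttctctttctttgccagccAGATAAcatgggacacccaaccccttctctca
Esrrg, chr1:187608756-187609005, plus strand: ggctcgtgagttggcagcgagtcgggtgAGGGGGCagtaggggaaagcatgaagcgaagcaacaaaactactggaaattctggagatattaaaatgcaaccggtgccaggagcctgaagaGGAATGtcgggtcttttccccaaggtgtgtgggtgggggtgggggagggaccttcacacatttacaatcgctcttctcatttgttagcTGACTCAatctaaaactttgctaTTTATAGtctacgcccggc
Ptgdr, chr14:44859376-44859625, minus strand: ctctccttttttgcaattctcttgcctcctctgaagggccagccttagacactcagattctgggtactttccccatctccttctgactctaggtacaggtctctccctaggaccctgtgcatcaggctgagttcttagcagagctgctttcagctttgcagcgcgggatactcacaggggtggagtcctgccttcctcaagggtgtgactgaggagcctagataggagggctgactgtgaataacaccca

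The Lmcd1 sequence held the palindromic cyclic AMP response element TGACGTCA and the E-box CAGCTG. In the Npy2r sequence the matches were an E-box and, on the other strand, the GATA motif AGATAA. Dpp4 held the GATA motif, the CDX motif TTTATNG and the TEAD motif GGAATG, the latter pair on the other strand. The Dpp4 member covered 195 of the 300 bases of the window, and the CDX match lay outside the part it covered. Esrrg held the AP-1 motif TGANTCA, the CDX and TEAD motifs and the core AGGGGGC of the CTCF motif, and its member covered 181 of the 300 bases. Its CTCF match lay outside the covered part. The Olfm4 and Ptgdr sequences matched none of the 19 motifs searched. A match describes the letters in this window and is not a bound site.

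Across the 76 member promoters, the TEAD motif was found in 19 (25%), against 11.7% of the 13297 windows overlapped by other comparable peaks and 14.6% of all 31396 autosomal windows. The GATA motif stood in 17.1% of member promoters, 6.1% of the other accessible promoters and 11.2% of all. The CDX motif, bound by the intestinal identity factors Cdx1 and Cdx2, gave 17.1%, 6.73% and 10.9% in the same order. The ETS motif CCGGAAGT was in 0 of the 76, 8.14% of the other accessible promoters and 3.95% of all. For the cyclic AMP response element the shares were 2.63%, 3.22% and 1.83%, and for AP-1 they were 7.89%, 5.57% and 7.84%. Base composition moved with these shares: median GC content was 52.3% in the member promoters, 61.3% in the other accessible promoters and 53% in all, with medians of 5, 21 and 7 CpG per window. The part of base composition in the motif shares was not tested. The shares also count matches in the part of a window that the peak did not cover. Gene pairs that share a start region and alternative starts of a gene share sequence, so the 76 windows are not independent.

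Library totals ranged from 12374232 to 14236985 counts. Epithelial genes had open gene ends in every library: the strongest gene-end peak of Epcam lay between 51.6 and 67 CPM, that of Cdh1 between 40 and 54.2 CPM, and that of the intestinal factor Cdx2 between 65.2 and 69.1 CPM. For Krt8 the range was 68.9 to 85.7 CPM and for Vil1 68.7 to 80.3 CPM. These last peaks were below both vehicle values in every treated library, which the other named genes did not show. The leukocyte gene Ptprc, the collagen genes Col1a1 and Col3a1 and the endothelial genes Pecam1 and Cdh5 had 0 peaks within 1 kb of their ends. Summed over all peaks near the genes of each list, the stromal list gave 183.8 to 188.1 CPM with vehicle, 167.1 to 170.3 after AA, and 165.4 to 171.3 after PGE2. The immune list gave 143.7 to 145.8, 136.3 to 143.4 and 144.6 to 148.4 CPM, and the endothelial list 481 to 484.6, 461.8 to 469.3 and 466 to 480.8 CPM. Lower sums were not particular to these lists. The crypt stem cell list gave 3321 to 3339, 2999 to 3045 and 3080 to 3162 CPM. For the enterocyte list the sums were 1960 to 2015, 1862 and 1678 to 1716 CPM. Paneth, goblet and tuft lists were also below vehicle with both treatments, and the enteroendocrine list with AA alone. Members were 0 of 21 comparable peaks near the stromal genes, 0 of 14 near the immune genes and 1 of 50 near the endothelial genes. Over all genes the share was 1.46%, at which lists this small can hold 0 members. These counts therefore do not show whether other cell types were present. 

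In the vehicle libraries the median member had 7.33 and 7.05 CPM. After AA it had 3.37 and 3.31 CPM, and after PGE2 3.52 and 3.51 CPM. Together the members took 1.36% and 1.34% of all vehicle counts. Their share was 0.653% and 0.649% in the AA libraries and 0.69% and 0.677% in the PGE2 libraries. In bulk libraries, fewer cells carrying an open site and less signal per cell cannot be told apart. All 1410 members passed the filter on low counts. On the log2 scale of the edgeR fit, the median member differed from vehicle by -1.02 with AA (5th to 95th percentile -1.70 to -0.71) and by -0.94 with PGE2 (-1.55 to -0.66), which is 2.03-fold and 1.92-fold lower. With p-values adjusted by Benjamini-Hochberg over all 89347 tested peaks and a threshold of 0.05, edgeR's quasi-likelihood test called 1410 of 1410 members lower with AA, where 13.8% of all tested peaks were called lower. It called 1405 lower with PGE2, where 10.6% of all tested peaks were called lower. The rule used both contrasts, so nothing is read from these shares.

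The ratio of the lower vehicle value to the highest treated value had a median of 1.67 and reached 2 in 243 members (17.2%), 2.5 in 54 and 3 in 10. Just inside the threshold, with a ratio of 1.5 after rounding, were a peak within Nprl3 near Mpg, one 121 kb from Rreb1 and one 301 kb from Cbln4. Just outside were a peak within Grip1 (1.499), one within Pcca (1.499) and one within Rasgrf2 (1.5 after rounding). Members were of moderate strength: 442 (31.3%) had a vehicle mean of at least 10 CPM and 10 (0.709%) at least 40 CPM, against 41.6% and 7.9% of the other comparable peaks. Median lengths were alike at 661 and 669 bp, although the 95th percentile was 1147 bp for the members and 1552 bp for the others. The members fell on all 19 autosomes, where they made up between 1.22% (chromosome 15) and 2.77% (chromosome 1) of comparable peaks.

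How far the choice of a peak carried over to a library that had no part in it was examined by applying the rule to 5 libraries at a time. Peaks chosen without the first vehicle library numbered 2083, and in that library 98.3% of them still lay above all 4 treated values, while 63.1% still met the ratio of 1.5. Without the second vehicle library these figures were 2071, 98.6% and 63.8%. Without the first AA library 1637 peaks were chosen, of which 100% lay below both vehicle values in that library and 88.7% met the ratio. Leaving out the second AA library gave 1645 peaks, 99.9% and 88.1%. For the PGE2 libraries 99.4% and 99.7% lay on their own side and 73.4% and 82% met the ratio. Peaks chosen on a single vehicle library had a median of 0.94 and 0.926 of that library's value in the vehicle library left out. Each left-out library was set against values that had themselves chosen the peaks. The same shares over all comparable peaks were not computed, so these figures are a description and not a test of the difference.

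Of the 8 members most accessible in vehicle, 2 stood at gene starts. The peak at the start of Lmcd1 (chromosome 6, 112273451 to 112275164), which encodes a LIM-domain cofactor, had 67.1 and 68.7 CPM with vehicle, 32 and 31.4 after AA, and 31.4 and 32 after PGE2. All 4 treated libraries lay within 1 CPM of each other and well below both vehicle libraries. The log2 difference was -1.07 (SE 0.07) with AA and -1.05 (SE 0.07) with PGE2. The peak at Lrat (chromosome 3, 82902779 to 82904626), the enzyme that esterifies retinol for storage, had 65.3 and 61.1 CPM with vehicle, 37.4 and 38.2 after AA, and 39.9 and 37.4 after PGE2. A peak within Shank2 (chromosome 7, 144055828 to 144056869), a scaffold protein, had 63.1 and 65.7 CPM with vehicle, 37.1 and 38.4 after AA, and 37.3 and 32.7 after PGE2. In both, the treated groups overlapped each other and neither reached vehicle. Peaks 166 kb from Chrm3, within Esrrg, near Trabd2b, within Macrod2 and within Myorg completed the 8 with the highest vehicle means, which ran from 43.5 to 67.9 CPM.

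Other members stood within 1 kb of an end of a coding gene. The peak at Npy2r (chromosome 3, 82547783 to 82549060), a receptor for neuropeptide Y family peptides, had 12.6 and 12 CPM with vehicle, 4.99 and 3.31 after AA, and 5.52 and 3.96 after PGE2. At Tfpi2 (chromosome 6, 3988520 to 3989219), an inhibitor of serine proteases, the values were 16.1 and 15.2, 5.34 and 5.74, and 6.97 and 6.2 CPM. At the start of Dpp4 (chromosome 2, 62411050 to 62412376), a peptidase of the enterocyte brush border, they were 32.1 and 30.5, 18.9 and 19.6, and 19.6 and 20.1 CPM. Dpp4 was 1.59-fold lower with AA and 1.53-fold lower with PGE2. At Fbp1 (chromosome 13, 62887437 to 62888551), an enzyme of gluconeogenesis, the values were 21.5 and 21.7, 13.6 and 14.2, and 14.3 and 14.2 CPM. At Pde8b, a phosphodiesterase that breaks down cyclic AMP, the start-site peak had 12.4 and 13 CPM with vehicle, 6.11 and 6.3 after AA, and 6.97 and 6.65 after PGE2. A peak 727 bp from an end of Egr1 (chromosome 18, 34865073 to 34866294), an immediate early transcription factor, had 33.7 and 33.8, 18.6 and 17.4, and 17.0 and 17.6 CPM. Gene-end members at Hamp2 (ratio 2.2), Ces1b (2.11) and Rab3b (2.06) were also among the 6 largest ratios of their kind; Hamp2 and Ces1b have near-identical copies elsewhere, so the placement of their reads is uncertain.

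**Figure D1:**
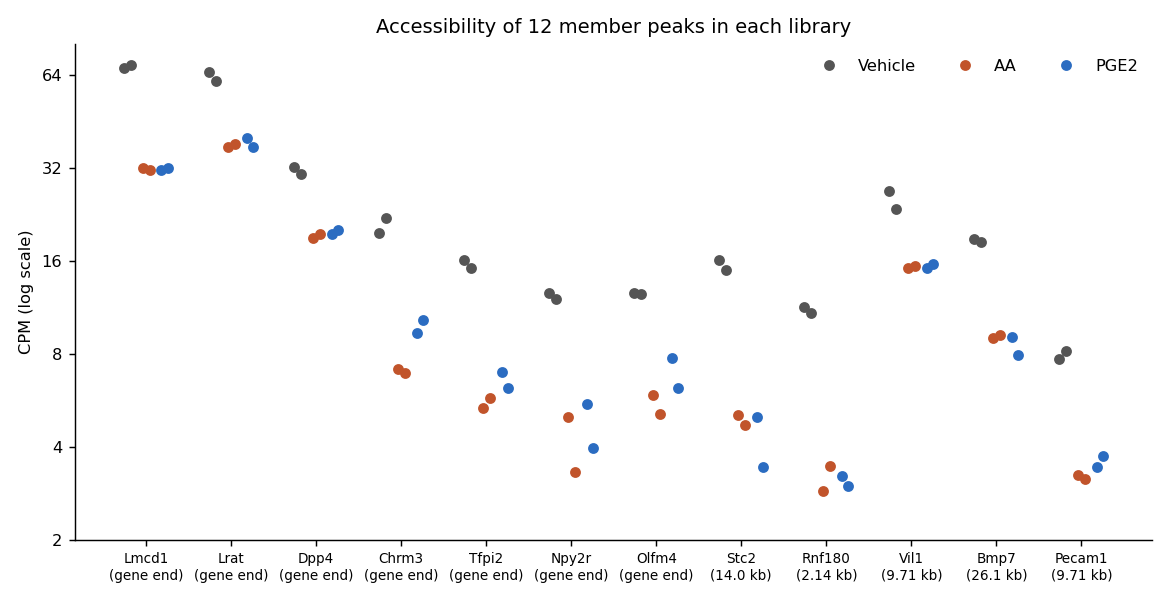
Accessibility of 12 members in each library, in CPM on a log scale, with 1 point per library. Below each name stands the distance to the named gene's nearest end, or "gene end" for peaks within 1 kb of it. At all 12 the 2 vehicle points lie above the 4 treated points, as the rule requires.

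Of the 10 members with the largest ratios, the first named here lay far from any coding gene and several others lay inside one. A pair of peaks on chromosome 1, at 102623718 to 102624055 and 102626981 to 102627468, both had a ratio of 4.28 and lay over 2133 kb from the nearest coding gene end, that of Cntnap5b. The first had 4.6 and 4.26 CPM with vehicle, 0.983 and 0.566 after AA, and 0.996 and 0.897 after PGE2. The second had 6.4 and 5.12, 0.773 and 1.13, and 1.15 and 1.2 CPM. These treated values were among the lowest of any member. Next came a peak on chromosome 5 (11854810 to 11855285), 63 kb from 4933402N22Rik, with a ratio of 3.57. On chromosome 4, a peak 334 kb from Prdm2 (142772847 to 142774066) had 14.2 and 14.3 CPM with vehicle, 4.43 and 4.12 after AA, and 3.22 and 4.11 after PGE2. Within Rnf180 (chromosome 13, 105132327 to 105133095), a ubiquitin ligase gene, a peak had 11.3 and 10.8, 2.88 and 3.47, and 3.22 and 2.99 CPM, which is 3.41-fold lower with AA and 3.44-fold lower with PGE2. Peaks within Bmpr1b, a receptor for bone morphogenetic proteins (3.14), and Sdk1, a cell adhesion gene (3.06), and peaks 100 kb from Cd83 (3.23), 159 kb from Unc13c (3.1) and 401 kb from Cdh26 (3.01) made up the 10 largest.

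Position was not used by the rule. The centre of a member lay a median of 36604 bp from the nearest end of a coding gene, and that of the other comparable peaks 10544 bp. Within 1 kb of a gene end were 70 members (4.96%) and 19% of the others, and within 50 kb were 806 (57.2%) and 81.7%. Beyond 200 kb were 191 members (13.5%) and 3.13% of the others. Within 1 kb of an annotated start site were 87 members (6.17%) and 17.9% of the others. Start sites on chromosome 18 were not used, although its peaks, 46 members among them, stayed in both totals. By location 649 members (46%) lay inside a coding gene, 155 (11%) inside a noncoding gene alone and 606 (43%) outside any gene, against 56.8%, 8.05% and 35.2% of the others. Exons and introns were not separated here. These shares are descriptions without a test, since neighbouring peaks are not independent.

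The share of counts in gene-end peaks differed between the groups, at 31.9% and 31.4% with vehicle, 32.3% and 32.8% after AA and 34.3% and 35.8% after PGE2. When gene-end and other peaks were scaled separately, an alternative chosen after seeing the data, the rule took 1189 peaks, 1144 of them shared with the 1410, and 9.67% of these lay within 1 kb of a gene end. The share at gene ends therefore moved by more than 1.5 times with this scaling. Peaks that met the opposite rule, with all 4 treated values at least 1.5 times both vehicle values, numbered 1833, of which 3.06% lay within 1 kb of a gene end and 69.1% within 50 kb.

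**Figure D2:**
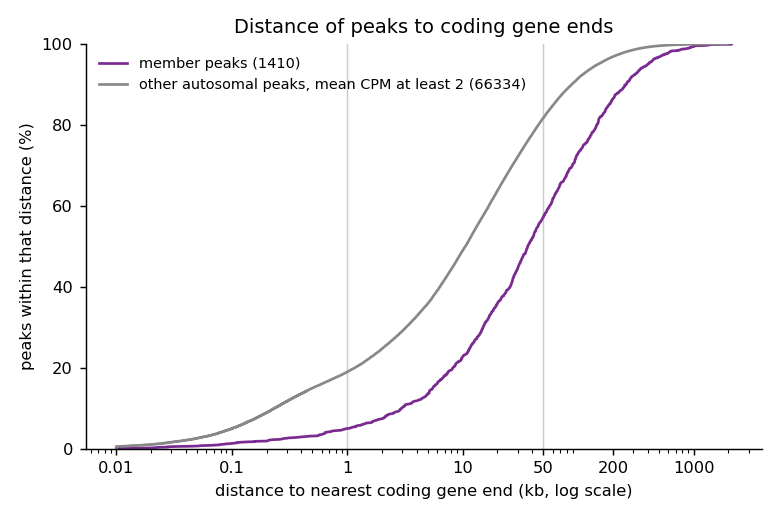
Cumulative percentage of peaks by distance from the peak centre to the nearest coding gene end, in kb on a log scale, for the 1410 members and the 66334 other autosomal peaks with a mean of at least 2 CPM. The member line lies below the other at 1 kb (4.96% and 19%) and at 50 kb (57.2% and 81.7%), the distances of the grey lines.

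Members lay near each other. Another member stood within 5 kb of 10.6% of members and within 100 kb of 41.5%, while 0.675% and 12.1% of the other comparable peaks had a member that near. Joining members at most 100 kb apart gave 1054 loci, of which 825 held a single member and 85 held 3 or more, with 297 members among them. The loci named here were picked for their member counts after the values were seen. The largest locus held 9 members over 331 kb of Esrrg, which encodes an orphan nuclear receptor of oxidative metabolism, and all 4 of the other comparable peaks there were called lower with both treatments, where 7.42% of all tested peaks were. The member at the Esrrg start (chromosome 1, 187608875 to 187610270) had 13.8 and 14.7 CPM with vehicle, 6.88 and 6.79 after AA, and 7.97 and 5.98 after PGE2. The strongest Esrrg member (187896442 to 187897350) had 56.6 and 55.0, 30.7 and 34.7, and 34.6 and 36.6 CPM. In all, 11 of the 18 comparable peaks with their centre in Esrrg were members, with log2 differences from -1.94 to -0.74 for AA and -1.47 to -0.60 for PGE2.

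At Xylt1, whose product starts glycosaminoglycan chains on proteoglycans, 7 of 10 comparable peaks over 220 kb were members. At Prr5l, a partner of the mTORC2 complex, 6 of 6 over 32.3 kb were members, and at Adgrd1, an adhesion receptor, 6 of 6 over 88.6 kb. The strongest ratio at Adgrd1 was 2.77, at a peak with 14.5 and 13.6 CPM with vehicle, 4.92 and 4.93 after AA, and 4.83 and 4.48 after PGE2. Locus members numbered 5 of 5 at Cdh26, a cadherin, and at Tenm3, a teneurin, and 5 of 6 in a stretch of chromosome 4 (142772847 to 142880770) that overlaps no coding gene. Each locus was measured from its first to its last member, which leaves out other peaks beyond its edges and favours complete counts. With the centre inside the gene, members were 6 of 11 comparable peaks at Tenm3, 6 of 7 at Prr5l and 7 of 11 at Xylt1. They were 4 of 5 at Adgrd1 and 3 of 3 at Cdh26. By nearest gene end within 50 kb, 686 genes were named by the 806 members, 592 of them by 1 member, 76 by 2 and 18 by 3 or more. Counted so, the most members fell to Adgrd1 (6 of 8 comparable peaks), Olfm4 (5 of 6), the metalloprotease gene Adamts16 (4 of 9), Cdh26 (4 of 5), the urea transporter gene Slc14a1 (4 of 8) and the secreted stanniocalcin gene Stc2 (3 of 4). The Stc2 peak with the largest ratio (2.94), 14 kb from the gene, had 16.1 and 14.9 CPM with vehicle, 5.06 and 4.69 after AA, and 4.98 and 3.44 after PGE2. All 3 comparable peaks inside Glp1r, the receptor of an incretin hormone, were members, with ratios of 1.52 to 1.61.

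Olfm4 encodes olfactomedin 4, a marker of crypt stem cells. The peak at its start site (chromosome 14, 79999943 to 80000621) had 12.6 and 12.5 CPM with vehicle, 5.9 and 5.09 after AA, and 7.74 and 6.2 after PGE2. It was 2.22-fold lower with AA and 1.75-fold lower with PGE2. A peak 18.6 kb upstream (79981283 to 79982034) had 21.5 and 20.7 CPM with vehicle, 9.97 and 8.0 with AA and 12.2 in both PGE2 libraries. A peak 14.7 kb upstream had 23.2 and 21.7, 10.7 and 9.94, and 12.2 and 12.2 CPM. Over the Olfm4 locus 6 of 7 comparable peaks were members and the other one was also called lower with both treatments.

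**Figure D3:**
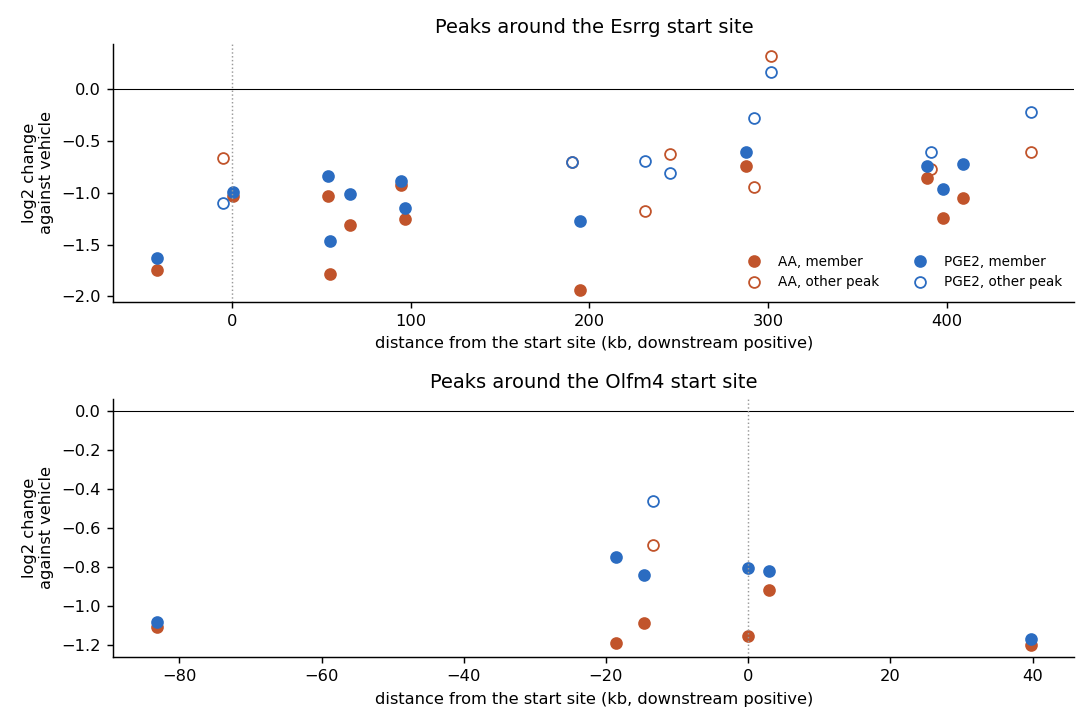
Log2 change against vehicle (y axis) of each comparable peak by distance from the start site of Esrrg and of Olfm4 (x axis, kb, downstream positive), with AA and PGE2 in different colours, members filled and other peaks open. At Esrrg 19 of 20 peaks lie below 0 with both treatments and 12 are members; at Olfm4 all 7 lie below 0 and 6 are members.

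Peaks that the rule left out were grouped by their distance from the nearest member. Of the 448 other comparable peaks within 5 kb of a member, 30.1% were called lower with both treatments, against 21% at 5 to 20 kb, 10.1% at 20 to 100 kb, 6.59% at 100 to 500 kb and 5.74% beyond 500 kb. Their median log2 differences over the same steps were -0.33, -0.18, -0.06, 0.01 and 0.02 for AA. For PGE2 they were -0.28, -0.17, -0.05, 0.01 and 0.02. A read pair that touched several peaks was counted in each, so adjoining peaks can share reads, and the part of this in the nearest step was not tested.

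**Figure D4:**
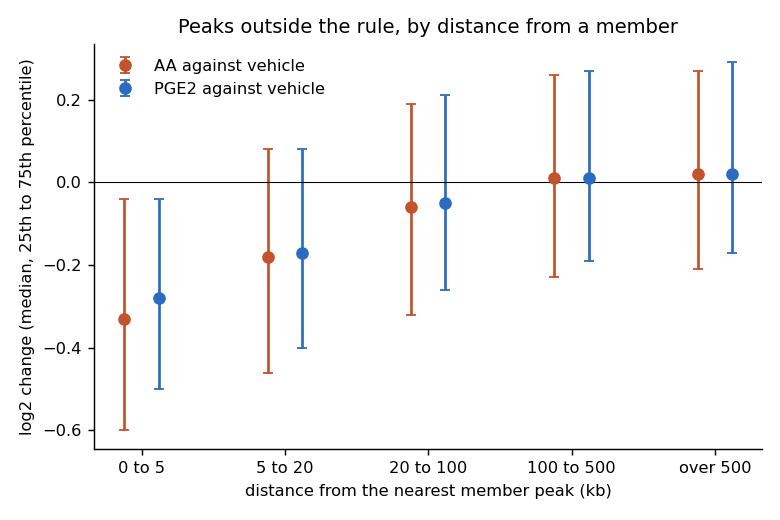
Log2 change against vehicle of comparable peaks outside the rule, grouped by distance to the nearest member in kb; points are medians and bars the 25th to 75th percentiles over peaks, not replicate error. The medians run from -0.33 (AA) and -0.28 (PGE2) within 5 kb to 0.02 for both beyond 500 kb.

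Gene ends near distal members were examined because a distal peak need not act on its neighbour. The 736 members between 1 and 50 kb from a gene end named 632 genes, and 379 of these had 420 comparable gene-end peaks that were not members. Gene-end peaks that met the rule were left out here and among the other genes, which lowers the shares called lower. With AA, 16.9% of the 420 were called lower and 13.6% higher, against 6.73% and 16.3% of 12175 gene-end peaks of other genes. With PGE2, 12.6% were called lower and 33.3% higher, against 4.73% and 35.6%. Most gene-end peaks near a distal member were therefore called in neither direction with AA, as were most of those of other genes. The difference between these shares was not tested.

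Gene lists of intestinal cell types and pathways held between 0 and 9 members each. Over all genes, 806 of 55025 comparable peaks within 50 kb of a gene end were members (1.46%). Among 187 peaks of the crypt stem cell list 9 were members (4.81%): 5 at Olfm4, 3 at the water channel gene Aqp4 and 1 at Rgmb, a BMP co-receptor. In that list 50 peaks were called lower and 22 higher with AA, and 30 lower and 20 higher with PGE2. Beside these and the list counts that follow, 16.7% of all tested peaks were called higher with AA and 14.3% with PGE2, and 19.2% and 17.6% of the comparable peaks outside the rule. Called lower were 13.8% of all tested peaks with AA and 10.6% with PGE2, and the same shares of the comparable peaks outside the rule. The absorptive enterocyte list had 3 of 125, at Dpp4, at Vil1, which encodes the microvillus protein villin, and at Apoa4, an apolipoprotein of dietary fat transport. The Vil1 member (chromosome 1, 74418681 to 74419513), inside the gene and 9.71 kb from its start, had 26.9 and 23.5 CPM with vehicle, 15.2 and 15.4 after AA, and 15.2 and 15.6 after PGE2. The strongest peak within 1 kb of a Vil1 end was not a member. It had 80.3 and 77.7 CPM with vehicle, 76.4 and 72.2 after AA, and 72.3 and 68.7 after PGE2. With PGE2 36 enterocyte-list peaks were called lower and 5 higher, and with AA 25 and 20.

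The fetal and regenerative list had 0 members among 105 peaks, of which 5 were called lower and 53 higher with AA and 3 lower and 40 higher with PGE2. Secretory lists also had 0 members: Paneth of 19 peaks, goblet of 70, enteroendocrine of 25 and tuft of 32. At the share of 1.46% over all genes, lists this small can hold 0 members, so nothing is read from these counts. The identity transcription factor list had 1 of 203, inside the nuclear receptor gene Hnf4a, where the values were 14.0 and 11.5 CPM with vehicle, 6.67 and 7.6 after AA, and 6.28 and 7.55 after PGE2. Among immediate early and AP-1 genes 2 of 127 were members, at Egr1 and 13.3 kb from Fos. The cyclic AMP list had 1 of 93, within Adcy9, an adenylyl cyclase gene, with 3.82 and 4.26, 2.25 and 2.02, and 2.38 and 2.32 CPM.

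Wnt targets had 2 of 176 peaks as members, within the ligand gene Wnt3 (ratio 1.63) and 7.62 kb from the transcription factor gene Lef1 (ratio 1.51). The BMP and TGF-beta list had 2 of 147, both inside the ligand gene Bmp7. The stronger (chromosome 2, 172913788 to 172914648) had 18.8 and 18.4 CPM with vehicle, 8.99 and 9.21 after AA, and 9.04 and 7.92 after PGE2. In that list 42 peaks were called higher and 20 lower with AA, and 30 higher and 12 lower with PGE2. The Notch list had 1 of 98, within the Notch ligand gene Dll1, at a low vehicle mean of 3.54 CPM. Stromal and immune lists had 0 of 21 and 0 of 14, and the endothelial list 1 of 50, a peak 9.71 kb from Pecam1 with 7.72 and 8.14 CPM with vehicle, 3.23 and 3.15 after AA, and 3.45 and 3.74 after PGE2.

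The comparison of AA with PGE2 is the one the rule leaves undirected, although by capping the higher treated value it bears on the size of that difference. With AA 3 members were called higher than with PGE2, where 5.06% of all tested peaks were (edgeR, adjusted over all peaks). With PGE2 44 members (3.12%) were called higher than with AA, where 4.88% of all tested peaks were. Both shares (0.213% for AA) were below the background. The other comparable peaks had 6.34% and 6.13% in these directions. The median log2 difference of AA from PGE2 was -0.09 over the members (25th to 75th percentile -0.26 to 0.07) and 915 of 1410 (64.9%) were negative, against a median of -0.00 and 50.6% negative over the others. The difference was under 0.5 in size in 1309 members, with a median standard error of 0.213. All AA values lay below all PGE2 values in 447 members and above them in 188. At an unadjusted p under 0.05 there were 31 members higher with AA and 139 higher with PGE2.

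The calls between AA and PGE2 depended on the method and on single libraries. DESeq2, which gave an adjusted p to 504 of the members, called 1 of them (Cachd1), and over all peaks 223 higher with AA and 343 higher with PGE2. The number called higher with PGE2 was 9 without the first AA library, 11 without the second, 25 without the first PGE2 library and 20 without the second, and of the original 44 these fits kept 7, 10, 19 and 20. The number called higher with AA was 1 without the first AA library, 5 without the second PGE2 library, 5 with DESeq2's size factors and 6 with library totals. Among the 1833 peaks of the opposite rule, 464 (25.3%) were called higher with AA and 8 (0.436%) higher with PGE2; the difference from the members was not tested.

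**Figure D5:**
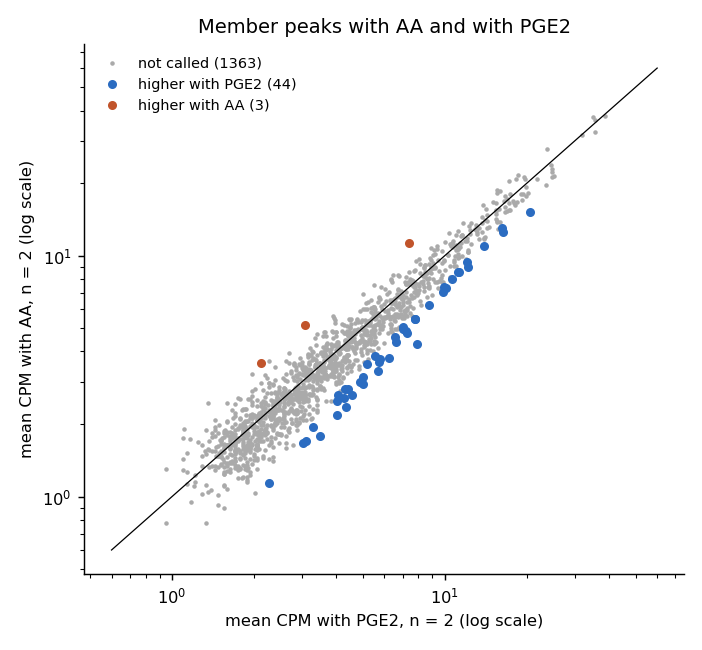
Mean CPM of each member with AA (y axis) and with PGE2 (x axis), both on log scales and over 2 libraries; the line marks equal values. The 44 members called higher with PGE2 lie below the line, the 3 called higher with AA above it, and the other 1363 around it.

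Cachd1, which encodes a membrane protein with calcium channel-like domains, held the member with the smallest p (chromosome 4, 100788229 to 100788843). It had 12.2 and 12.8 CPM with vehicle, 4.64 and 3.96 after AA, and 8.05 and 7.7 after PGE2. PGE2 lay between vehicle and AA with no overlap, and AA was lower than PGE2 by a log2 difference of -0.88 (SE 0.16, edgeR adjusted p = 0.00025). This call was kept under every alternative run. Within Nrp1 (chromosome 8, 128424030 to 128425301), a co-receptor for semaphorins and VEGF, the values were 34.6 and 35.1, 14.4 and 15.8, and 20.7 and 20.3 CPM, with a log2 difference of -0.45 (SE 0.10, edgeR adjusted p = 0.00184). The Nrp1 adjusted p rose to 0.0884 without the first AA library and to 0.13 with DESeq2. A peak 53 kb from Crygf had a log2 difference of -0.74 and one 26.5 kb from Bend7 of -0.79, both with an edgeR adjusted p of 0.00384. With DESeq2 their adjusted p was 0.149 and 0.146, and without the first AA library that of Bend7 was 0.1.

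Among the gene-end members, 3 were called higher with PGE2, at Chrm3, Ptgdr and F13a1, named after their values were seen. The peak at the start of Chrm3 (chromosome 13, 10359438 to 10361357), the muscarinic receptor of epithelial secretion, had 19.7 and 22 CPM with vehicle, 7.16 and 6.95 after AA, and 9.35 and 10.3 after PGE2. Its log2 difference of AA from PGE2 was -0.49 (SE 0.14, edgeR adjusted p = 0.0163), and the adjusted p was 0.256 with DESeq2 and 0.101 to 0.174 when either AA library or the second PGE2 library was left out. The start of Ptgdr (chromosome 14, 44858532 to 44859650), a receptor for prostaglandin D2, had 5.46 and 5.35 CPM with vehicle, 1.69 and 2.18 after AA, and 3.37 and 3.21 after PGE2. The edgeR adjusted p was 0.0311 for a log2 difference of -0.79 (SE 0.25), and it rose to between 0.0559 and 0.309 when any treated library was left out. At F13a1, which encodes a coagulation factor subunit, the values were 9.2 and 10.8, 2.6 and 2.1, and 5.06 and 3.59 CPM, for a log2 difference of -0.88 (edgeR adjusted p = 0.0079; 0.101 without the second AA library and 0.146 without the first PGE2 library). The Olfm4 peak 18.6 kb upstream differed by -0.44 (SE 0.13, edgeR adjusted p = 0.0173), and its adjusted p was 0.277 with DESeq2, 0.262 without the second AA library and 0.0816 without the second PGE2 library.

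Of the 3 members called higher with AA, 0 lay within 1 kb of a gene end. A peak 91.9 kb from Itgb8, an integrin subunit (chromosome 12, 119070404 to 119071432), had 17.7 and 18 CPM with vehicle, 11.4 and 11.1 after AA, and 6.9 and 7.85 after PGE2. Here AA lay between vehicle and PGE2, with a log2 difference of 0.59 (SE 0.13, edgeR adjusted p = 0.00218; 0.105 with DESeq2). A peak 347 kb from Cox7c differed by 0.74 and one 7.47 kb from the protease gene Nrd1 by 0.75, with edgeR adjusted p of 0.0101 and 0.0315. The adjusted p at Cox7c was 0.176 with DESeq2, 0.149 without the first AA library and 0.14 without the second PGE2 library. That at Nrd1 was 0.181 and 0.0927 without the first and the second AA library and 0.249 without the first PGE2 library.

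At 3 of the members of largest ratio, no difference between AA and PGE2 was detectable at this depth. The log2 difference of AA from PGE2 was 0.01 (SE 0.22) at Rnf180, -0.27 (SE 0.24) at Sdk1 and 0.17 (SE 0.34) at Bmpr1b, with edgeR adjusted p of 0.983, 0.549 and 0.819. At Lmcd1 it was -0.01 (SE 0.07, edgeR adjusted p = 0.943) and at Lrat -0.05 (SE 0.07, edgeR adjusted p = 0.758).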

How the data were processed

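The authors deposited raw counts per consensus peak for all 6 libraries in 1 table. Counting was paired and unstranded in featureCounts 1.6.3, per the file headers; reads were taken as their 5′ ends, and a pair was counted in every peak it touched. Build mm10 and the tools MACS2, SAMtools, Picard, BWA and Trim Galore are named per the submitters' processing notes. Their settings, the making of the consensus peaks and any shift of reads for the transposase offset were not given in the sources used here. Regions outside the peaks went unmeasured.

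CPM came from column totals. edgeR 4.0.16 fitted all 6 libraries in 1 quasi-likelihood model (robust, group term, TMM factors 0.969 to 1.02, 3 residual and a median of 42.3 prior degrees of freedom), after filterByExpr removed 1476 peaks and left 89347. P-values were adjusted over all tested peaks. DESeq2 1.42.0 was an alternative. The fit was also run on simulated counts with known changes, drawn with the same spread setting for every peak. Real peaks differ in spread, so that run does not test the calls made here, and nothing is read from it.

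A peak was assigned to the coding gene with the nearest end to its centre, within 50 kb unless a longer distance is given, with RefSeq's gene table (21896 coding genes); a peak may act on a gene farther away. Start sites and sequences came from RefSeq's promoter table of the same assembly, and start sites and sequences of chromosome 18 were not used.

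The members and the 16 gene lists and 19 motifs were chosen with earlier results of these data known. Named were the 10 largest ratios, the 8 highest vehicle means, the 6 largest ratios and 4 highest vehicle means at gene ends, the 6 genes with most members (a tie was broken by the largest ratio, which took Stc2), up to 3 members per list, the 4 smallest p in each direction between AA and PGE2, and 3 peaks on each side of the threshold. Esrrg, Xylt1, Prr5l, Tenm3, Chrm3, Nrp1, Glp1r, Ptgdr, Pde8b, Fbp1, F13a1 and the loci were picked after their values were seen.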

Additional observations from a re-analysis of the deposited data

How the results depend on the processing

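The number of members depends on the rule: 4388 peaks met the looser ratio tried, 243 a ratio of 2 and 650 a mean of at least 5 CPM, and leaving out 1 library, which loosens the rule, gave 1637 to 2083. The 3 members higher with AA than with PGE2 became 5 with DESeq2's size factors, 6 with library totals, 0 with the DESeq2 test and 1 to 5 with 1 library left out. The 44 higher with PGE2 became 1 with the DESeq2 test, which gave 504 of the members an adjusted p, and 9 to 34 with 1 library left out; with an arm of 1 library, its spread is taken from the other groups. The cause was not tested. The median log2 difference from vehicle was -1.01 for AA with DESeq2's size factors, -1.06 for AA and -0.99 for PGE2 with library totals, and -1.04 to -1.02 (AA) and -0.94 to -0.93 (PGE2) with 1 library left out. The share of members near a gene end was 3.12% within 500 bp and 7.45% within 2 kb (14.8% and 24.4% of all comparable peaks), 22.8% within 10 kb and 73% within 100 kb (48.4% and 91.1%), and 9.67% within 1 kb with separate scaling.

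With the replicate number as a replicate block, 4 members were higher with AA and 43 higher with PGE2. Same-numbered libraries did not deviate together (correlations of 0.00469, -0.0198 and 0.0357), and 2 pairs are too few to settle pairing. Named members had 1156 alternative values between AA and PGE2. Of these, 1130 kept their side of the threshold, 25 lost it and 1, at a peak within Esrrg, gained it. Most of the values belong to members not called in the main fit, which had no call to lose, so all 25 losses fell on called members. Among called differences 0 changed direction. Some uncalled differences changed sign: at the Esrrg start the log2 difference was -0.04 in the main fit and 0.16 without the first PGE2 library. DESeq2 fits that gave a member no adjusted p were not counted. The planned motif window of another width was not run. Counts of 41 to 94 at the median member limit precision, and with 2 libraries a group small differences between AA and PGE2 could not be detected.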
